A study of Mus musculus with 4 samples.

Results

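The genes described here encode the enzymes that make GABA and receptors that respond to it, in the dentate gyrus of the mouse hippocampus. They are glutamate decarboxylase 1 and 2 (Gad1, Gad2), the GABA-A receptor subunits alpha 2 (Gabra2) and beta 1 (Gabrb1), and subunit 1 of the GABA-B receptor (Gabbr1). The members were taken by symbol: every probe set whose annotation gives 1 of these 5 symbols and no other was used, which found 5 probe sets, 1 for each gene, among 8251 genes with a probe set of their own on the array. Total RNA came from 4 samples of young male C57BL/6J mice that an experimenter handled and that received no other treatment, so all groups share the handling. Extraction was timed by a parallel experiment, at 1, 2, 4 or 6 h after shocked mice had their last shock, and each hour has 1 sample. How many mice stand behind a sample is not given in the sources used here, and the shocked mice were not analysed here. Values are array intensities on a linear scale, in the order 1, 2, 4 and 6 h.

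GABA is the main inhibitory transmitter of the brain and is made from glutamate by the 2 decarboxylases, mainly in interneurons. GABA-A receptors are chloride channels built from several subunits, and the subunits set where the channel sits and how it responds. GABA-B receptors are G protein-coupled pairs of subunits that open potassium channels and dampen transmitter release. In the dentate gyrus this inhibition is known for keeping granule cells sparsely active.

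Of 9 granule cell markers on the array, 8 passed the filter on low intensity, a mean log2 intensity of at least 7.41. Their levels differed widely. Ncdn, the brightest, had a mean intensity of 34615 ± 2314 and the calcium-binding protein gene Calb1 2632 ± 265 (SD, n = 4). Prox1 was dim, at 192 ± 40 (SD, n = 4), and Trpc6 lay under the filter. Summed over the marker list, intensity ran from 41559 to 46015 for 9 granule cell genes, from 28665 to 31404 for 26 interneuron genes, from 8850 to 11830 for 9 CA field pyramidal and mossy cell genes and from 2431 to 3061 for 7 thalamus genes. Each sum compares the hours within its own list and not the lists with each other, and bright probe sets weigh most in it. These are Ncdn in the granule cell list, and Cck (mean 10585) in the interneuron list, which also holds Gad1, Gad2 and Slc32a1. Without these 4 genes the interneuron sum was 14585, 14478, 13423 and 11989, lower at each later hour. Without Ncdn the granule cell sum was 8403, 9905, 8854 and 8136, also lowest at 6 h. Bright genes such as Pvalb (3385 at 1 h and 2304.5 at 6 h) weigh most in this interneuron sum. Without Gad1, Gad2 and Slc32a1, 7 of 12 interneuron genes past the filter were lower at 6 h than at 1 h. Over all tested genes 2467 of 4951 were. The brightest gene of the thalamus list, Calb2 (mean 1051), is also in the interneuron list and the CA field and mossy cell list. Of the thalamus genes 4 passed the filter, and 2 of these, or 50%, spanned over 2-fold, against 15% of the 4951 genes that passed it. They were the transcription factor genes Tcf7l2 (411.8, 622.5, 291.3 and 127.5) and Lef1 (456.2, 222.3, 910.9 and 500.9). The second probe set read 82, 83, 117.5 and 109 for Tcf7l2 and 20.1, 12.2, 22.9 and 31.7 for Lef1. The part of thalamus genes in the members' values was not tested. Of 8 choroid plexus genes with a probe set, 2 passed the filter, and both spanned over 2-fold, against 15% of tested genes. Transthyretin (Ttr) read 81.3, 233.6, 2408.1 and 191.2, so the 4 h sample stands apart in it. Igf2, in its brighter probe set, read 1849.1, 4402.2, 2954.6 and 2520.8, highest at 2 h. The median intensity of the probe sets with 1 gene symbol was 200.4, 202.8, 226.7 and 202.4. In bulk tissue, fewer cells of a type and less RNA per cell cannot be told apart.

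The 5 genes did not share a course. Gad1 and Gabbr1 were nearly level across the samples, Gabrb1 varied moderately, Gad2 was lower at each later hour at dim intensities, and Gabra2 varied over 6.34-fold. No gene had a trend over the hours that passed the test: limma's adjusted p, over 4951 genes past the filter, was 0.99993 for Gad1, Gabra2, Gabrb1 and Gabbr1. Across all genes 0% were called by that test (0 of 4951, with 100 at an unadjusted p under 0.05). Each hour has 1 array, so a single hour has no replicate error, and neighbouring hours cannot be tested against each other.

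**Figure D1:**
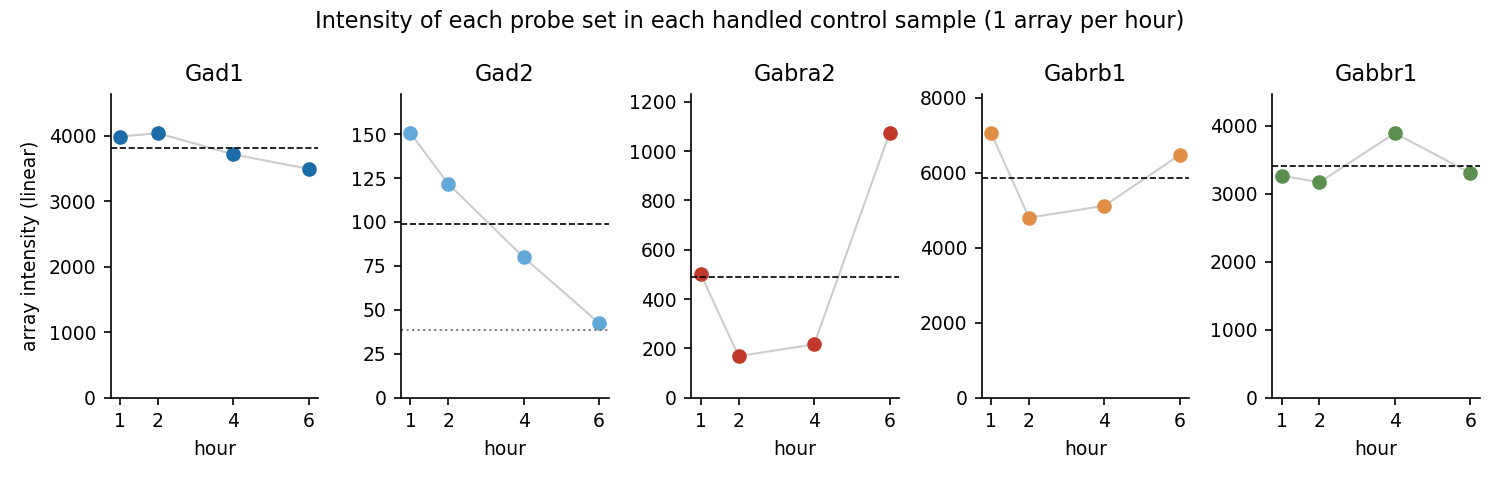
Each panel plots the linear array intensity of 1 gene's probe set against the hour, with 1 point per handled control sample, a grey line that joins the points, and a dashed line at the mean of the 4. The axes start at 0. The dotted line in the Gad2 panel is the floor of 38.3, and the Gad2 point at 6 h, at 42.5, lies just above it. Gad1 stays between 3491.9 and 4036, while Gabra2 ranges from 169.1 to 1072.3.

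Gad1, the decarboxylase found throughout the cell body and processes of interneurons, read 3985, 4036, 3712.5 and 3491.9 (probe set 103061_at). The first 2 hours were the higher pair and the last 2 the lower pair, within a span of 1.16-fold. The mean was 3806 ± 253 (SD, n = 4), or 0.10 as an SD in log2 units. A line through the 4 values had a slope of −0.04 ± 0.05 log2 per h (SE). Of the 4951 tested genes, 6.38% had a narrower span than Gad1. Bright genes vary less on these arrays: among the 1650 genes in its 20% band of mean intensity, where the median span was 1.34-fold, 88.4% had a span at least as wide. Scaling each array to its median, which moved the median tested gene at 4 h from 0.02 to −0.15 log2 against the other hours, made 4 h rather than 6 h the lowest for Gad1.

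Gad2, the decarboxylase concentrated at nerve terminals, read 150.5, 121.7, 79.9 and 42.5 (probe set 92899_at). Each later sample was lower than the one before, a ratio of 3.54 between 1 h and 6 h. Its mean, 98.7 ± 47.3 (SD, n = 4), put it under the filter, which corresponds to an intensity of 170.4, so it was not among the genes tested and was fitted with all 8251 genes instead. There the log2 slope per hour was −0.36 ± 0.05 (SE, n = 4), with an unadjusted p of 0.00557 and an adjusted p of 1 from limma. The SEs of the 2 fits are not alike: Gad1 had 0.05 among the tested genes and 0.017 without the filter. Without the filter 0% of genes were called. A fold over 2 between the highest and lowest hour was common in that set, at 32.1% of genes, and 10.3% had a span at least as wide as that of Gad2. Among the 1650 genes in the same 20% band of mean intensity, 38.3% did. Lower values at every step were seen in 2.22% of the 8251 genes, and in 0.727% together with a fold over 2. The ratio was 2.05 with a floor at the 30th percentile, which lies above its value at 6 h, and 2.17 with 50 added to each intensity. Without the 6 h sample it was 1.88.

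Gad1 and Gad2 both lie on chromosome 2. From 1 h to 6 h the difference was −0.19 log2 for Gad1 and −1.82 for Gad2. For both genes 6 h was the lowest hour as deposited.

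Gabra2, an alpha subunit that contributes to the benzodiazepine site of GABA-A receptors, read 499.9, 169.1, 216.4 and 1072.3 (probe set 101215_at). The 6 h sample was highest, the 1 h sample was second, and the 2 h and 4 h samples were both low. The mean was 489 ± 415 (SD, n = 4). Of the 4951 tested genes, 15% spanned over 2-fold, and 26 genes, or 0.525%, had a span as wide as that of Gabra2 or wider. In its 20% band of mean intensity, 1.58% of 1650 genes did, and the median span there was 1.73-fold. Gabra2 was over 2-fold apart in 5 of its 6 pairs of hours, against 0 of 6 for Gad1, Gabrb1 and Gabbr1 and 2 of 6 for Gad2. The share of tested genes over 2-fold apart was 3.07% for 6 h against 1 h, 3.94% for 2 h against 1 h, 3.96% for 6 h against 2 h, 5.27% for 4 h against 2 h, 5.92% for 6 h against 4 h and 5.96% for 4 h against 1 h. The pair in which Gabra2 was under 2-fold apart was 2 h and 4 h (1.28-fold).

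For Gabra2 the fitted slope came to 0.28 ± 0.16 (SE, log2 per h, n = 4; limma unadjusted p = 0.102), and its sign rested on the 6 h sample. Without that sample the slope was −0.32 and the span 2.96-fold. Without the 1 h sample the slope was 0.67 and passed the test (limma adjusted p = 0.00529), from a line through 3 arrays; 0.263% of genes were called there. Without the 2 h sample it was 0.17 and without the 4 h sample 0.35, neither called. The order of the hours was the same after scaling each array to its median, with 518, 173, 198 and 1100.9.

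Gabrb1, a beta subunit, read 7051, 4800, 5116.2 and 6477.1 (probe set 92749_at). As with Gabra2, the 1 h and 6 h samples were both above the 2 h and 4 h samples, but the span was 1.47-fold, and 50.5% of tested genes spanned as much or more. In its 20% band of mean intensity, which is also that of Gad1, 29.9% did. The mean was 5861 ± 1076 (SD, n = 4). The line fitted to it was flat, at 0.00065 ± 0.06 log2 per h (SE, n = 4), and its sign differed between settings. With arrays scaled to their medians, 4 h took the place of 2 h as the lowest hour, and 1 h and 6 h remained the higher pair.

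The arrangement that Gabra2 and Gabrb1 share is common on these arrays. Values at 1 h and 6 h were both above those at 2 h and 4 h in 19.3% of tested genes, and 7.27% had 2 h as the lowest besides. A wide gap was rare: 3 genes, or 0.0606%, had both values over 2-fold above both others. They were Gabra2, the vesicle fusion regulator complexin 2 (Cplx2: 2702.7, 638.3, 1043.9 and 2127.9) and neurogranin (Nrgn: 7613.5, 3092.9, 2517.8 and 6525.7), a postsynaptic calmodulin-binding protein. This count was chosen after the values were seen, and after array median scaling it held 4 genes, with Ago2 added.

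**Figure D2:**
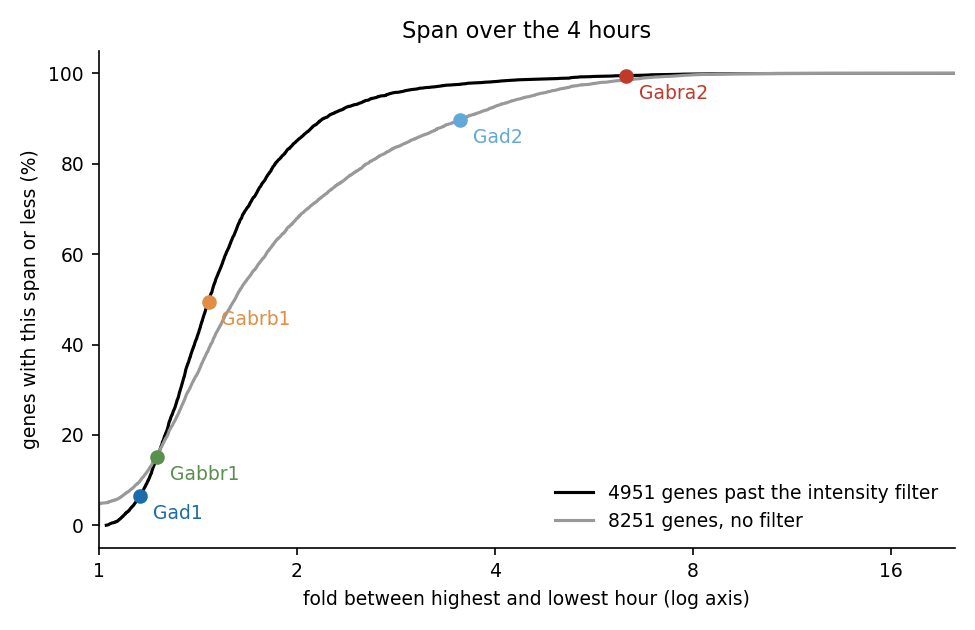
The curves give the percent of genes (vertical axis) whose ratio between the highest and lowest hour is at or below the value on the horizontal log axis, for the 4951 genes past the filter (black) and all 8251 genes (grey). Gad1 at 1.16-fold and Gabbr1 at 1.23-fold sit near the bottom of the black curve, Gabrb1 at 1.47-fold near its middle and Gabra2 at 6.34-fold near its top; Gad2, at 3.54-fold, is placed on the grey curve.

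Gabra2 and Gabrb1 lie in the same cluster of receptor genes on chromosome 5, where the protein-coding order in RefSeq is Gabrg1, Gabra2, Cox7b2, Gabra4 and Gabrb1. Of these, Gabrg1, Gabra2 and Gabrb1 have a probe set of their own here. Gabrg1, a gamma subunit, read 79.3, 140.8, 93.8 and 109.1, under the filter and highest at 2 h, the hour at which Gabra2 and Gabrb1 were lowest. The upstream sequences of Gabra2 and Gabrb1 are shown because these members had the same higher and lower pairs of hours. They are the 250 bases before a RefSeq start in GRCm38.p6, for Gabra2 chr5:71095850-71096099 on the minus strand and for the second Gabrb1 start chr5:71699682-71699931 on the plus strand, inside the Gabrb1 gene. Capitals mark GGGCGG (a GC box) and CCAAT on either strand.
Gabra2: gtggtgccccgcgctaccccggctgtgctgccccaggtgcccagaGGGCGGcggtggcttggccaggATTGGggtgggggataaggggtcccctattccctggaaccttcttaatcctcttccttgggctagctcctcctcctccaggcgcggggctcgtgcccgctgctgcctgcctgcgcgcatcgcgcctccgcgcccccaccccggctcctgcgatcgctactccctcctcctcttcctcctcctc
Gabrb1: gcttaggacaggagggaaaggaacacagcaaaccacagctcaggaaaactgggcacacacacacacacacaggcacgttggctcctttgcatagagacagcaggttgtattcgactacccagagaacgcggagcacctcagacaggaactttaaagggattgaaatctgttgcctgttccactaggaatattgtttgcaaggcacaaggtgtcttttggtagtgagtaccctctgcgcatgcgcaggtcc

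The Gabra2 stretch holds 1 GC box, 205 bases before the start, and 1 CCAAT match on the opposite strand, 183 bases before it. GGGCGG or its complement was found in 32.7% of 32851 such upstream stretches and CCAAT or its complement in 33.8%. Gabra2 has 18 CpG pairs in these bases and the second Gabrb1 start 6, which is also the median of all stretches. The first Gabrb1 start, whose upstream bases lie within the Gabra4 gene, has 18. The letters TATAAA (12.4% of stretches on either strand), CACGTG (6.02%) and TGACGTCA (1.55%) were in neither printed window. Of the other members, Gad1 had TATAAA and GGGCGG once each upstream, both on the opposite strand. On the gene's own strand, CCAAT was found upstream of Gad2 and GGGCGG in 2 places upstream of Gabbr1. The Gad1 and Gad2 windows lie inside those genes, before a start that is not the gene's boundary in RefSeq. The Gabbr1 start is its gene's boundary. A match is a match of letters and was not tested for binding.

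Gabbr1, the subunit of the GABA-B receptor that binds GABA, read 3266.4, 3167.9, 3890.3 and 3305.3 (probe set 98011_at, chromosome 17). The 4 h sample was highest and the other 3 lay close together, a span of 1.23-fold with a mean of 3407 ± 327 (SD, n = 4). Per hour the log2 intensity differed by 0.02 ± 0.05 (SE, n = 4), and 15.1% of tested genes had a narrower span. In the same band of intensity, 74.7% had a span at least as wide. The 4 h array also had the highest median intensity. After scaling each array to its median the values were 3387, 3246, 3566 and 3394, a span of 1.10-fold. With quantile normalization instead, the span was 1.28-fold. Without the 4 h sample the span was 1.04-fold.

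Likeness to other genes was measured as the root mean square difference between log2 profiles over the 4 samples, each centred on its own mean. All profiles share the same 4 arrays, and with so few points close matches are frequent. Nearest to Gad1 were Qdpr (0.0073 log2), Ccndbp1 (0.0086) and Pabpc1 (0.020), and 384 of 4950 genes lay within 0.1. Nearest to Gabrb1 were Pgap4 (0.011), Chgb (0.014) and Arhgef3 (0.017), with 123 genes within 0.1. Chgb, a granin of secretory granules, read 22232.4, 15253.3, 16502.8 and 20900.6. Nearest to Gabbr1 were Samd10 (0.010), Rnpepl1 (0.022) and Cd276 (0.025), with 336 genes within 0.1. No gene lay within 0.1 of Gabra2, and its nearest were Ago2 (0.34), Pcp2 (0.48) and Dhx36 (0.50).

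The 4 members that passed the filter were set against each other by the same measure, and Gad2 was not compared. The distance between Gad1 and Gabbr1 was 0.17 log2, with 1391 of 4950 genes nearer to Gad1 than Gabbr1 was and 1224 nearer to Gabbr1 than Gad1 was. Between Gabra2 and Gabrb1 it was 0.87, with 400 genes nearer to Gabra2 than Gabrb1 was and 4876 nearer to Gabrb1 than Gabra2 was.

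Of 21 genes for GABA receptors, 11 had a probe set and 3 passed the filter, which were the receptor members already described. The delta subunit gene Gabrd, whose product forms receptors outside synapses on granule cells, read 39.7, 207.3, 222.4 and 26.5. It was low at 1 h and 6 h, near or under the floor, and higher at 2 h and 4 h, the reverse of Gabra2. Both low hours were over 2-fold below both others in Gabrd, as in 1.08% of all 8251 genes, and the ratio from its highest to its lowest hour was at least 5.81. The gamma 3 subunit gene Gabrg3 read 188.3, 128, 97.5 and 98.3, and the beta 2 gene Gabrb2 62.4, 41, 137.8 and 83.1. The Gabra6 probe sets disagreed, with 91.4, 72.9, 128 and 26.7 for one and 43.3, 75.7, 10.6 and 20 for the other. Gabra3 (15.1, 15.5, 27.3 and 7.9) and the rho 1 gene Gabrr1 (17.5, 20, 22.9 and 8.3) were under the floor at every hour, and the rho 2 gene Gabrr2 was above it at 2 h alone (18.9, 58.5, 19.7 and 26.2).

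**Figure D3:**
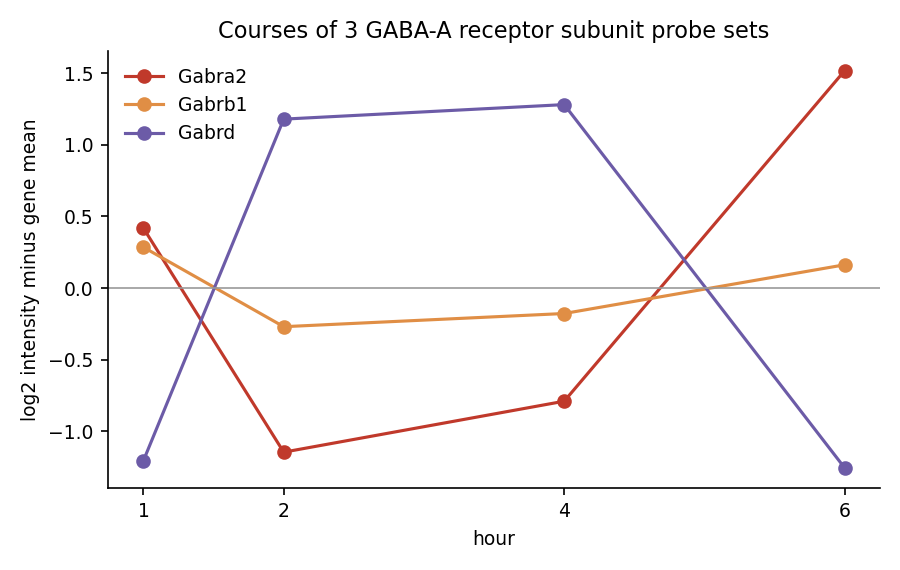
The plot gives log2 intensity minus each gene's own mean over the 4 samples (vertical axis) against the hour, with 1 point per sample joined by lines, for Gabra2, Gabrb1 and Gabrd. Gabra2 runs from −1.15 at 2 h to 1.52 at 6 h, Gabrb1 from −0.27 to 0.29, and Gabrd is high where Gabra2 is low. The 6 h value of Gabrd is set to the floor.

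Beyond the decarboxylases, 3 of the other 6 listed genes of GABA synthesis and breakdown had a probe set, and all 3 passed the filter. The aldehyde dehydrogenase gene Aldh9a1 read 269.8, 256.2, 136.8 and 367.3, lowest at 4 h. The aspartate transaminase gene Got2 read 1450, 1391, 2066.5 and 1492.5, highest at 4 h, while its second probe set was at 72.2 at 1 h and under the floor otherwise. Glutamine synthetase (Glul) of astrocytes was highest at 4 h in one probe set (929.7, 967.7, 1238.5 and 837.3) and at 6 h in the other (623.5, 401.1, 612 and 724.7). Counting Gad1, 2 of 4 tested genes had a positive slope, against 2469 of 4951 over all tested genes, and 1 of 4 spanned over 2-fold, against 15%.

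For GABA transport and release, 3 of 4 genes with a probe set passed the filter and none spanned over 2-fold, against 15% of tested genes. All 3 slopes were negative, as were 2482 of 4951 over all tested genes. The vesicular GABA transporter gene Slc32a1, which loads GABA into vesicles, read 1640.4, 2707.2, 1720.3 and 1843.3. It stood out at 2 h, where Gad1 was also highest but by far less. The plasma membrane transporter gene Slc6a13 was also highest at 2 h (511.1, 816.1, 487.6 and 449.1). The amino acid transporter gene Slc38a2 was level in its brightest probe set, at 450.4, 388, 416 and 390, and near or under the floor in 3 others. Slc6a12, under the filter, read 36, 94.9, 23 and 113.3.

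Of 17 listed genes that anchor or move GABA-A receptors, 11 had a probe set and these 11 passed the filter. Of them, 1 spanned over 2-fold, against 15% of tested genes: Nsf, the vesicle fusion ATPase, at 11894, 5770.7, 7196.5 and 9502.9. Trak2, a kinesin adaptor, read 201, 228.1, 118.4 and 194.7. The receptor scaffold gephyrin (Gphn) had 828.1, 714.8, 716.9 and 832.3. Like Gabrb1, both Nsf and Gphn had their higher values at 1 h and 6 h, an order found in 3 of the 11 genes and in 19.3% of all tested genes. Slopes were negative in 8 of 11, against 2482 of 4951 over all tested genes, with a median slope of −0.03 log2 per h. In chloride transport, 3 of 5 genes passed the filter and all 3 slopes were negative, as were 2482 of 4951 over all tested genes. Of the 3, 1 spanned over 2-fold, Slc12a7, against 15% of tested genes. Slc12a7 read 180, 267.6, 328 and 152.4, and Slc12a2, which brings chloride into the cell, 803.8, 878.5, 558.3 and 657.6. The extruder gene Slc12a5, under the filter, had 210.7, 122.5, 88 and 177.2.

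Among effectors of GABA-B receptors, 6 of 9 genes passed the filter, 3 slopes were positive and 3 negative, and 1 of the 6 spanned over 2-fold, against 15% of tested genes. That was the potassium channel gene Kcnj9, at 217.4, 186.5, 230.3 and 626.9, and its second probe set (158, 50.4, 138.2 and 73.2) did not share the 6 h peak. The G protein gene Gnai3 read 1157.4, 2031.4, 1034.8 and 1299.6. Gnao1, the G protein alpha subunit abundant in neurons, read 16779.3, 10723.8, 12333.5 and 15397.2 in its brightest probe set. There 1 h and 6 h were the higher pair, an order found in 1 of the 6 effectors and in 19.3% of tested genes. Of its other probe sets, 104414_at and 100388_at had that order. In 161902_f_at (768.6, 481.9, 498.5 and 474.6) 6 h was lowest, and 103844_at was under the floor at every hour. In none of these lists was any gene called by limma over all tested genes.

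Interneuron markers stood beside Gad1 as follows. Of 26 with a probe set, 14 passed the filter, and 8 of the 14 were lower at 6 h than at 1 h, against 2467 of 4951 over all tested genes. Without Gad1, Gad2 and Slc32a1, which are in that list, the count was 7 of 12. Of these 12, Cck, Reln, Htr3a, Dlx1 and Lhx6 were higher at 6 h than at 1 h. Somatostatin (Sst) read 3603.5, 4223.2, 3193.9 and 3271.8, parvalbumin (Pvalb) 3385, 2528.5, 2752.8 and 2304.5, and neuropeptide Y (Npy) 2097, 1775.5, 1515.6 and 1477.9. Npy, like Gad2, was lower at every step, as were 2.4% of tested genes, over a ratio of 1.42. Spans over 2-fold were seen in 2 of the 14, against 15% of tested genes: Dlx1 (130.1, 319.3, 93.8 and 243.1) and Lhx6 (289, 141.2, 280 and 289.9), both transcription factors of interneuron development, with opposite courses at 2 h. The cannabinoid receptor gene Cnr1 was under the floor at every hour. The part of interneuron content in the values of Gad1 and Gad2 was not tested.

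**Figure D4:**
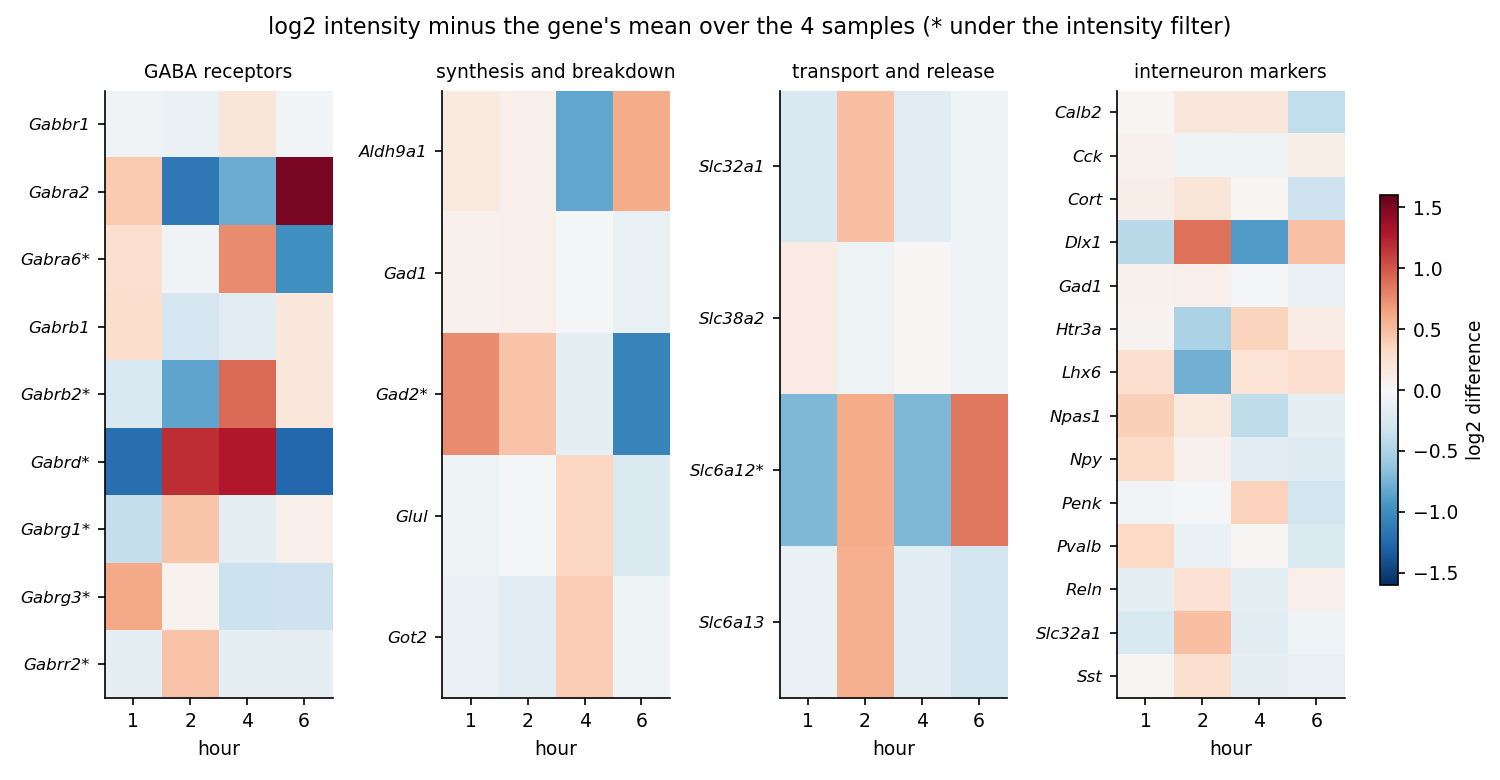
Each row is a gene and each column a sample by hour, and colour gives log2 intensity minus that gene's mean over the 4 samples, for GABA receptors, synthesis and breakdown, transport and release, and the interneuron markers past the filter. An asterisk marks genes under the filter; receptor genes under the floor at every hour are not drawn. Gabra2 and Gabrd hold the strongest colours in opposite columns, and the Gad1 row is pale throughout.

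**Figure D5:**
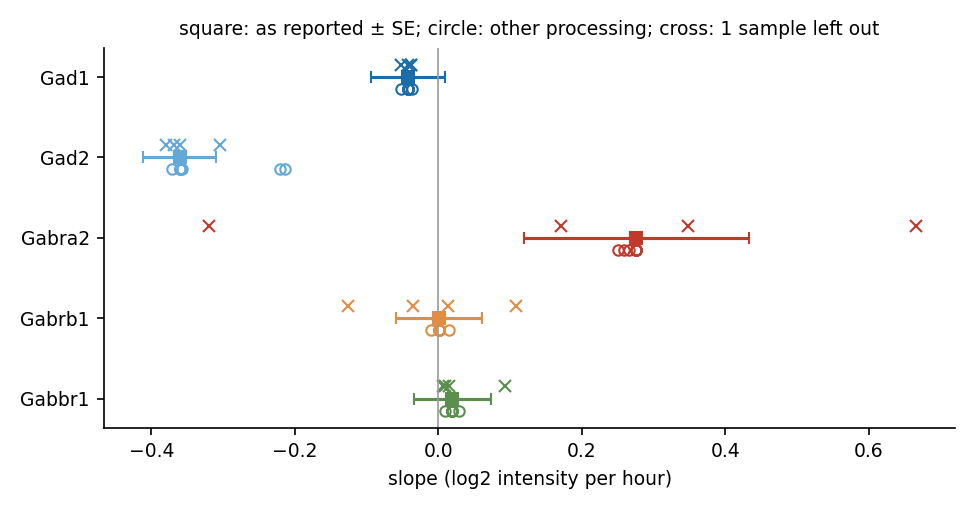
Slopes in log2 intensity per hour (horizontal axis) for the 5 genes, with the reported slope and its SE as a square with bars, other processing settings as circles and fits without 1 sample as crosses. Gad1 and Gad2 keep a negative slope in each, while the Gabra2 crosses run from −0.32 without the 6 h sample to 0.67 without the 1 h sample. Circles for settings that alter only the filter, the choice of probe set or the eBayes trend cannot leave the square.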

How the data were processed

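The authors deposited a table of linear array intensity values, 1 for each of 12488 probe sets in each sample. How these intensities were made is not given in the sources used here. Their mean without the top and bottom 2% was 500.3 on each of the 4 arrays, which fits 1 scale factor per array set by the authors, and no further scaling was applied. Probe sets without exactly 1 gene symbol and 66 array controls were left out. Where a gene had several probe sets (2073 genes), the brightest on average stood for it. A floor of 38.3, the 20th percentile of the table, replaced lower intensities before log2. Genes with a mean log2 at or above the 40th percentile of gene means, 7.41, were tested. The slope of log2 intensity on the hour came from limma (version 3.58.1; R version 4.3.3), with eBayes with an intensity trend, 2 residual degrees of freedom, two-sided, Benjamini-Hochberg adjusted, called at 0.05, in a script tested on simulated data. The number of mice behind each sample, and whether mice were pooled, is not given in the sources used here, so p-values measure only the scatter between these samples about a line, which may be technical; hour and array cannot be told apart. Array number limits the precision. Upstream sequences and gene order are RefSeq's, GRCm38.p6; the array's own build is not given in the sources used here. Named genes are the members, the 3 nearest genes of each tested member, GABA receptor, synthesis and transport genes with a probe set, and the 2 widest spans of each pathway list; others were chosen after their values were seen. Members and lists were chosen with earlier results of these data known.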

Additional observations from a re-analysis of the deposited data

Results flagged for a closer look

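Of 51 genes checked, the members among them, 2 had 1 sample far from the other 3, where chance alone flags about 1 in 20. For Lhx6, a transcription factor of interneuron development, the gap between the 2 h sample (141.2) and the next (280) was 0.952 of the whole log2 range. For the granule cell marker Calb1 the 2 h sample (3026.3) was the high one, with a gap of 0.831 of the range. None of the 5 GABA genes was among them; the widest gap was that of Gabbr1 at 4 h, 0.793 of its range.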

How the results depend on the processing

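No gene passed the trend test under any of the 8 other processing settings, and leaving out 1 sample gave 0 to 13 called genes. Genes spanning over 2-fold numbered 741, but 2652 without the filter and 3699 with every probe set and no filter, where more dim genes were counted, and 377 to 529 with 1 sample left out, lowest without the 4 h sample. The slope of Gabra2 ran from −0.32 (without 6 h) to 0.67 (without 1 h) with 1 sample left out and from 0.25 to 0.28 otherwise. That of Gabrb1 was −0.0096 with array median scaling and ran from −0.13 to 0.11 with 1 sample left out. The ratio of Gad2 ran from 1.88 to 3.54 with 1 sample left out. The span of Gabbr1 was 1.10 with array median scaling, 1.28 with quantile normalization and 1.04 to 1.23 with 1 sample left out. Leaving out a sample can only keep or narrow a span, so these counts and ratios could not rise under it. Where not named, the cause was not tested. Gad1 kept its direction under all 12 alternatives, at −0.05 to −0.04, and Gad2 under 11. Not all of these could have changed it. Each gene has 1 probe set, so settings that alter only the filter, the choice of probe set or the eBayes trend cannot move its slope. Gad2 lies under the filter, so its alternatives, added after the data were seen, are without it. No paired analysis was possible because there is 1 group with 1 sample per hour.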
